A study of Mus musculus with 8 samples.

Results

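The enzymes and transporters that build and sulfate glycosaminoglycans were described in sorted growth plate cells of mice treated with SAG or with its vehicle. The 46 members were chosen by gene symbol for their role in the pathway, without a threshold on their values but with earlier results of these data known. All 46 were found among the 16536 genes of the count table. They comprised 6 genes of the linker shared by chondroitin sulfate and heparan sulfate, 6 of the chondroitin chain, 9 of chondroitin and dermatan sulfate modification, 5 of the heparan chain, 11 of heparan sulfate modification, 6 of sulfate and sugar supply, and 3 hyaluronan synthases.

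RNA was sequenced from mCherry+CD73+ cells of Pthrp-mCherry mice, which carry a red reporter under control of the gene of parathyroid hormone–related protein, *Pthlh*, whereas CD73 (*Nt5e*) is a surface marker of resting zone cells. SAG, an agonist of Smoothened that activates the Hedgehog pathway, or DMSO alone was given i.p. once daily from P30 to P36, and the cells were taken at P38 from both femoral growth plates of each mouse. There were 4 DMSO and 4 SAG mice with 1 library each, and the labels name the tissue as metaphyseal growth plate. All mice of both groups carried the reporter, and sorting on a reporter and 1 surface protein selects cells by these alone.

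Glycosaminoglycans are long sugar chains attached to core proteins such as aggrecan, the main proteoglycan of cartilage. A linker of xylose, galactose, and glucuronic acid is first placed on the core protein, and the chain is then extended as chondroitin sulfate or as heparan sulfate and sulfated at defined positions with sulfate from the donor PAPS. Chondroitin sulfate holds water in the cartilage matrix, whereas heparan sulfate binds secreted signals such as Hedgehog proteins and fibroblast growth factors. Hyaluronan is made at the cell surface, without a core protein and without sulfate.

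The libraries held 24971992 to 46593090 counts. *Col2a1*, *Sox9*, *Nt5e*, and *Pthlh* were detected in every mouse. DMSO mouse 4 had the fewest counts and the fewest genes detected (14416, against 15524 to 15926 in the other DMSO mice), and its Spearman's rho with the other DMSO mice was 0.846 to 0.875, against 0.931 to 0.942 among those 3. The summed level of 14 chondrocyte markers was 46870 to 108986 CPM (a gene's counts relative to the TMM-scaled total of its library) in the DMSO mice and 19015 to 53117 CPM in the SAG mice, and it was lowest in DMSO mouse 4 and SAG mouse 2. The summed level of 14 neutrophil markers was 5002 to 14889 CPM with DMSO and 28483 to 45182 CPM with SAG, without overlap, and that of 10 markers of the B lineage was 75.0 to 406 CPM and 20.2 to 39.6 CPM. None of the markers in these 3 lists was at 0 in all mice, and the part of other cells in the results on the glycosaminoglycan genes was not tested. *Nt5e*, the gene of the sorted surface protein, was at 184 to 270 CPM with DMSO and 149 to 174 CPM with SAG, without overlap. Over all genes tested, 3.84% had every SAG mouse below every DMSO mouse. *Pthlh* overlapped, at 14.9 to 22.1 CPM with DMSO and 18.4 to 29.9 CPM with SAG.

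No member passed the test in either direction (edgeR's quasi-likelihood test, Benjamini-Hochberg adjusted p under 0.05), whereas 2.62% of the 15421 genes tested were called higher and 0.266% lower with SAG. At an unadjusted p under 0.05, 2 members were higher (*Chst15* and *Ndst1*), against 9.58% of all genes, and 7 were lower (*Csgalnact1*, *Chsy3*, *Chst3*, *Extl1*, *Hs3st3a1*, *Hs3st3b1*, and *Slc35d1*), against 6.50%. Together these 9 were 19.6% of the members, close to the 16.1% of all genes. By direction, lower genes outnumbered higher ones among the members (7 against 2), whereas higher genes outnumbered lower ones over all genes (9.58% against 6.50%). By the adjusted p of DESeq2, *Chst15* and *Ndst1* were called higher (5.17% of all genes) and *Chst3*, *Chsy3*, and *Extl1* lower (2.53%), with no adjusted p given for 3 members. With limma voom, *Chst15* was called higher (6.45% of all genes) and *Chsy3*, *Extl1*, *Hs3st3a1*, and *Hs3st3b1* lower (2.58%). The 4 SAG mice were all above the 4 DMSO mice for 1 member, *Chst15* (7.90% of all genes), and all below them for 1 member, *Chst3* (3.84%). Without DMSO mouse 4, edgeR called *Chst15* higher (adjusted p = 0.0362) and *Extl1* (adjusted p = 0.0479) and *Hs3st3b1* (adjusted p = 0.0279) lower, while it called 1017 of all genes higher and 343 lower. Without SAG mouse 1, *Chsy3* was called lower (adjusted p = 0.0351), with 348 of all genes higher and 35 lower, and without any other single mouse no member was called.

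The fold change was below 0 on the log2 scale for 34 of the 46 members and above 0 for 12, with a median of -0.35 against -0.08 over all genes tested and a range of -1.82 to 2.61. Of all 15421 genes tested, 8457 had a fold change below 0 and 6964 above 0. The median was -0.43 for the linker, -0.38 for the chondroitin chain, -0.34 for chondroitin and dermatan modification, -0.25 for the heparan chain, -0.20 for heparan modification, -0.41 for supply, and -0.37 for the hyaluronan synthases. In a bulk library, fewer cells of a type and less RNA per cell cannot be told apart. For comparison, all 14 chondrocyte markers had a fold change below 0, with a median of -0.99, and edgeR called 0 of them. In these markers, 13 were lower at an unadjusted p under 0.05 (6.50% of all genes). DESeq2 called 5 lower (2.53% of all genes) and limma voom 9 (2.58%). Of 5 markers of hypertrophic chondrocytes edgeR called 2 lower, *Ihh* (adjusted p = 0.0238) and *Col10a1* (adjusted p = 0.0368), against 0.266% of all genes. DESeq2 called 4 of the 5 lower, these 2 among them (2.53% of all genes). With limma voom 2 were called lower (2.58%), *Panx3* and *Pth1r*, but neither *Ihh* nor *Col10a1* (adjusted p = 0.0514 and 0.352). The values of *Col10a1* overlapped, with 14.1 CPM in DMSO mouse 3 and 9.57 to 33.7 CPM in the SAG mice. The median of the 5 was -2.50. Their summed levels were 198 to 873 CPM with DMSO and 87.9 to 126 CPM with SAG, without overlap.

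**Figure D1:**
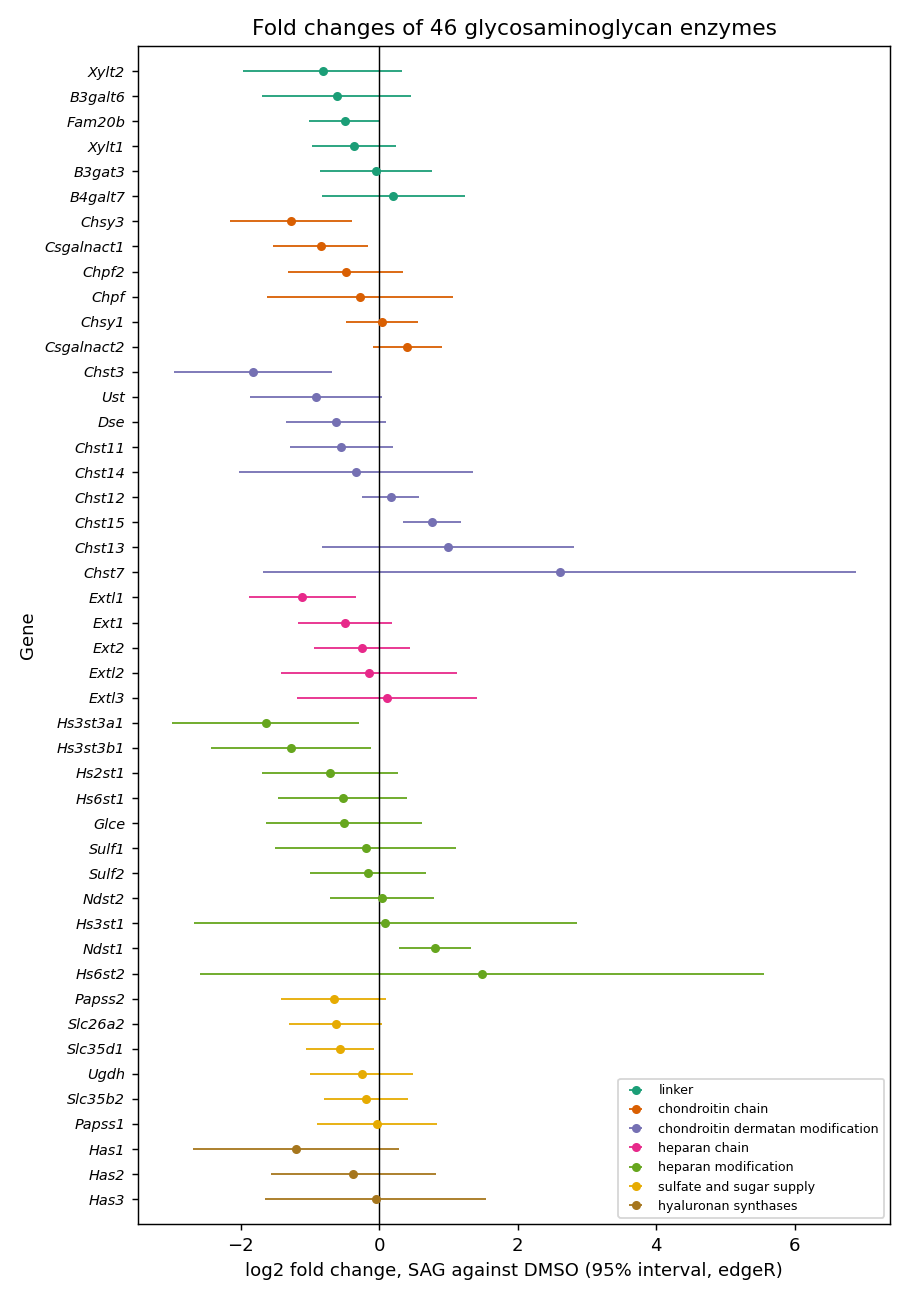
Log2 fold change of each of the 46 members, SAG against DMSO (x axis), grouped and coloured by role, with genes on the y axis; points are edgeR estimates and lines are 95% intervals over 4 and 4 mice. The intervals of 9 members leave out 0, those of *Chst15* and *Ndst1* above it and 7 below it, and none of the 46 passed the adjusted threshold.

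The levels of the members, compared per exon length as RPKM (CPM divided by the exon length in kilobases), spanned over 3 orders of magnitude. Most abundant in the DMSO mice were *Chst11*, a chondroitin 4-O-sulfotransferase, at 104 ± 41.3 RPKM (mean ± SD, n = 4), and *Papss2*, which makes PAPS, at 102 ± 33.7 RPKM, and these did not differ beyond their spread. *Xylt1*, which places the first xylose, followed at 53.7 ± 16.6 RPKM, then the 4-O-sulfotransferase *Chst12* at 37.7 ± 2.19 RPKM. The supply of PAPS to the Golgi (*Slc35b2*, 24.6 ± 9.30 RPKM) and the start of the chondroitin chain (*Csgalnact2*, 23.5 ± 6.78 RPKM) came next. For PAPS and for the first xylose, 1 of 2 paralogs held most of the level. *Papss1*, the other PAPS synthase, stood at 7.43 ± 4.01 RPKM, and *Xylt2* at 4.46 ± 1.80 RPKM. Among heparan sulfate genes, the highest levels were those of *Extl1* (15.0 ± 4.25 RPKM), *Sulf2* (13.6 ± 7.12 RPKM), and *Hs3st3b1* (12.3 ± 7.04 RPKM). The lowest of all was *Chst7*, with 0.0793 ± 0.159 RPKM, and *Hs6st2*, *Has3*, and *Hs3st1* were also under 1 RPKM on average in the DMSO mice.

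**Figure D2:**
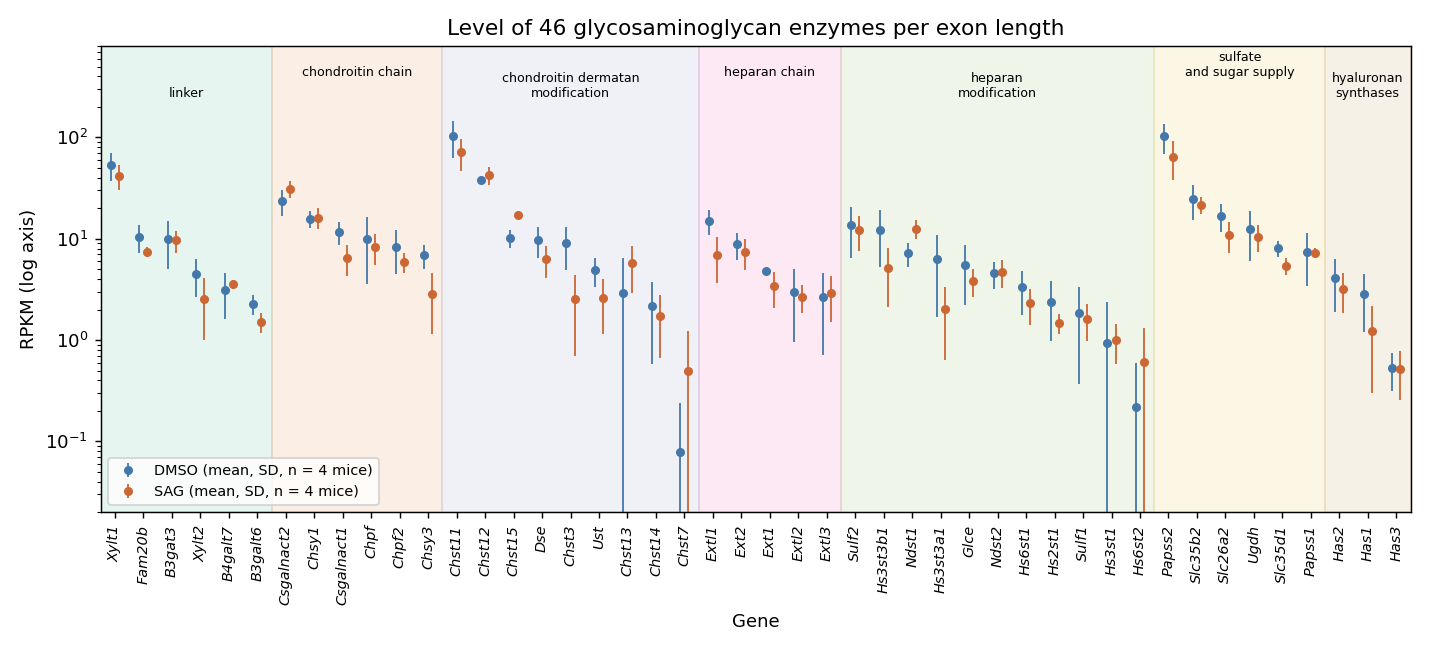
RPKM of the 46 members on a log axis, in order of the DMSO mean within each role (x axis); points are means and lines SD of 4 mice per group, and a line that would reach 0 runs off the axis. *Chst11* and *Papss2* are the highest in both groups, and *Chst7* and *Hs6st2* are the lowest 2 in the DMSO mice.

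Of the 6 linker genes, 0 passed the test and 5 had a fold change below 0. *Xylt1* had 603, 619, 573 and 279 CPM in the DMSO mice and 544, 285, 366 and 419 CPM in the SAG mice, and the log2 fold change was -0.36 (SE 0.27, adjusted p = 0.595). DMSO mouse 4 was far below the other 3 DMSO mice and below every SAG mouse, so the groups overlapped. *Xylt2*, the other xylosyltransferase, had 27.1, 17.1, 17.2 and 9.60 CPM in the DMSO mice and 3.13, 6.89, 15.8 and 14.6 CPM in the SAG mice. The groups overlapped in the range of 9.60 to 15.8 CPM, and the log2 fold change was -0.81 (SE 0.52, adjusted p = 0.510).

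*B3galt6*, which adds a galactose of the linker, was low, with 9.26, 5.38, 7.73 and 6.80 CPM in the DMSO mice and 3.31, 5.13, 5.83 and 4.79 CPM in the SAG mice. Its log2 fold change was -0.61 (SE 0.49, adjusted p = 0.622), and only 1 DMSO mouse was within the range of the SAG mice. *Fam20b*, a kinase that phosphorylates the linker xylose and thereby permits chain extension, had 101, 126, 77.1 and 61.8 CPM in the DMSO mice and 74.8, 61.8, 64.1 and 58.1 CPM in the SAG mice. DMSO mouse 4 lay inside the range of the SAG group, the other 3 DMSO mice lay above all SAG mice, and the log2 fold change was -0.50 (SE 0.23, adjusted p = 0.328). The other 2 linker genes, *B4galt7* (a galactose) and *B3gat3* (glucuronic acid), had log2 fold changes of 0.20 and -0.05 and overlapped between groups.

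None of the 6 genes of the chondroitin chain passed the test, and 4 were below 0. *Csgalnact1*, which starts chondroitin chains on the linker, had 60.5, 68.0, 38.2 and 70.1 CPM in the DMSO mice and 35.0, 16.7, 39.0 and 41.5 CPM in the SAG mice. Only DMSO mouse 3 reached into the SAG range, SAG mouse 2 was lowest, and the log2 fold change was -0.84 (SE 0.31, adjusted p = 0.200). Its paralog *Csgalnact2* had 109, 182, 120.1 and 101 CPM in the DMSO mice and 157, 219.6, 146 and 156 CPM in the SAG mice, with a log2 fold change in the other direction of 0.41 (SE 0.23, adjusted p = 0.427). Here SAG mouse 2 was the highest of all and DMSO mouse 2 the only control above a SAG mouse.

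*Chsy3*, a chondroitin synthase that extends the chain, had 59.3, 57.5, 30.9 and 51.3 CPM in the DMSO mice and 37.9, 9.41, 15.6 and 19.5 CPM in the SAG mice. SAG mouse 1 was within the DMSO range and the other 3 SAG mice were below every DMSO mouse, with a log2 fold change of -1.27 (SE 0.40, adjusted p = 0.126). *Chpf2*, a polymerizing factor that works with the synthases, had 54.2, 47.6, 67.3 and 16.4 CPM in the DMSO mice and 36.9, 24.3, 30.0 and 41.4 CPM in the SAG mice, with DMSO mouse 4 below all other mice. The log2 fold change was -0.48 (SE 0.38, adjusted p = 0.606), and 2466 exon bases of *Chpf2* overlap *Smarcd3* on the opposite strand, where reads of the 2 genes can be told apart only by strand. The most abundant synthase, *Chsy1*, had a log2 fold change of 0.04, and *Chpf* had -0.27 with a DMSO range of 3.49 to 59.5 CPM.

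The chondroitin and dermatan modifiers held both members whose groups did not overlap, and 0 of 9 passed the test. Over all genes tested, the SAG mice were all above the DMSO mice for 7.90% and all below them for 3.84%. *Chst15*, which adds a further sulfate to residues that already carry one and so makes the disulfated unit of chondroitin sulfate E, had 86.9, 69.6, 62.2 and 54.9 CPM in the DMSO mice and 123, 118, 101 and 123 CPM in the SAG mice. Every SAG mouse was above every DMSO mouse, and the log2 fold change was 0.77 (SE 0.19, adjusted p = 0.0574), with a 95% interval of 0.35 to 1.19. *Chst3*, the main chondroitin 6-O-sulfotransferase, had 44.6, 32.7, 63.7 and 93.9 CPM in the DMSO mice and 6.12, 8.03, 20.0 and 32.3 CPM in the SAG mice. Every SAG mouse was below every DMSO mouse, although DMSO mouse 2 and SAG mouse 4 lay close together, and DMSO mouse 4 was the highest of all. The log2 fold change was -1.82 (SE 0.52, adjusted p = 0.0905), with a 95% interval of -2.96 to -0.68.

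The promoters of these 2 genes are shown because they are the members that separated the groups mouse by mouse. Each sequence is the 250 bases before a RefSeq start on the gene's strand in GRCm38.p6, from chr10:60219261-60219510 for *Chst3* and chr7:132317229-132317478 for *Chst15*, both on the minus strand. The genes themselves lie at chr10:60181532-60219260, minus strand, and chr7:132235780-132317228, minus strand (GENCODE M21). Capitals mark a GC box, GGGCGG, a short motif bound by Sp factors.
Chst3: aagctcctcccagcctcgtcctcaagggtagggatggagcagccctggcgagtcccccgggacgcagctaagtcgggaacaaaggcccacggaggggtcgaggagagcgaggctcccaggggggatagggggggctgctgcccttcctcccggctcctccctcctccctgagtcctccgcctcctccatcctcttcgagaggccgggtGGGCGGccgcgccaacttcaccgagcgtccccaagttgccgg
Chst15: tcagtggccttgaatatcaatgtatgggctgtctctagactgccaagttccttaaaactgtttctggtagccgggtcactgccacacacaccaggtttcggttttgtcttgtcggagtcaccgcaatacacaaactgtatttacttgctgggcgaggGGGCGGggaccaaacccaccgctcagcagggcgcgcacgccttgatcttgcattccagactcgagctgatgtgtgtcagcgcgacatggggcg
The *Chst3* window lies outside annotated exons, and the *Chst15* window overlaps 1 exon of another gene. RefSeq gives a further start for *Chst15*, whose window, chr7:132317027-132317276, overlaps 2 exons, holds a GC box as well, and is not shown. Promoter windows, 44 in all and more than 1 for some genes, were matched for 36 of the 46 members and not for *Csgalnact1*, *Chsy3*, *Xylt1*, *Ext1*, *Extl3*, *Ndst1*, *Sulf1*, *Slc26a2*, *Has2*, and *Has3*. The GC box (GGGCGG, both strands) was in 27 of these 44 windows and in 32.7% of all 32851 windows in the table, and the TATA box TATAAA was in 2, of *Hs6st2* and *Sulf2*, against 12.4%. The Gli-binding motif GACCACCCA was in 0 of the 44 and in 0.225% of all windows, which says only that these letters are not in these windows.

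*Chst11*, the most abundant 4-O-sulfotransferase, had 764, 721, 546 and 261 CPM in the DMSO mice and 555, 221, 409 and 387 CPM in the SAG mice. DMSO mouse 4 and SAG mouse 2 were far below the others of their groups, and the log2 fold change was -0.54 (SE 0.34, adjusted p = 0.497). *Ust*, which sulfates the uronic acid, had 30.6, 26.6, 15.4 and 17.5 CPM in the DMSO mice and 21.0, 6.39, 7.52 and 13.0 CPM in the SAG mice, with overlap through SAG mouse 1 and a log2 fold change of -0.91 (SE 0.43, adjusted p = 0.337). *Dse*, the epimerase that turns chondroitin into dermatan, had 53.4, 38.6, 33.2 and 68.8 CPM in the DMSO mice and 30.1, 17.3, 35.1 and 43.7 CPM in the SAG mice, with overlap and a log2 fold change of -0.62 (SE 0.33, adjusted p = 0.401).

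*Chst7*, another 6-O-sulfotransferase, was counted in 1 of 4 DMSO mice, with 0.699, 0, 0 and 0 CPM in the DMSO mice and 0.115, 0.261, 0.548 and 3.47 CPM in the SAG mice. A count of 0 allows up to 0.0670, 0.0906, and 0.114 CPM (3 counts) in the other DMSO mice. SAG mouse 4 held most of the signal, and the fitted log2 fold change of 2.61 depends on the prior count (95% interval -1.67 to 6.89, adjusted p = 0.586). It was 8.38 without DMSO mouse 1 and 0.79 without SAG mouse 4. The remaining modifiers, the 4-O-sulfotransferases *Chst12*, *Chst13*, and *Chst14*, had log2 fold changes of 0.17, 1.00, and -0.34. *Chst12* was the steadiest of them, at 85.0 to 96.6 CPM with DMSO and 80.3 to 127 CPM with SAG.

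**Figure D3:**
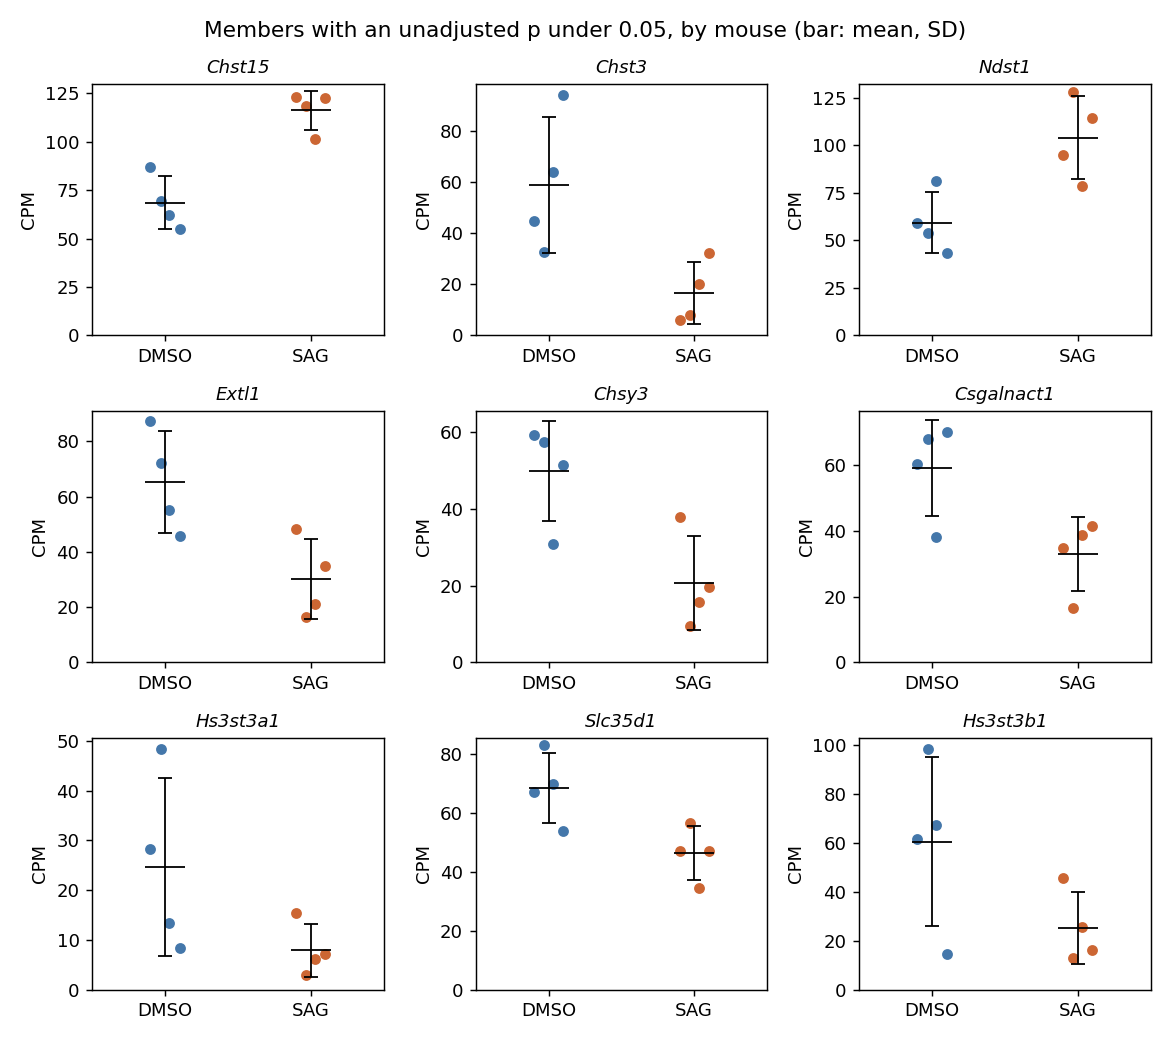
CPM in each mouse (points) with mean and SD (black), DMSO and SAG on the x axis, for the 9 members with an unadjusted p under 0.05. Only *Chst15* and *Chst3* show no overlap between the groups; the other 7 share part of their range.

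In the heparan chain group 0 of 5 genes passed the test and 4 were below 0. *Ext1*, which forms with *Ext2* the polymerase of heparan sulfate, had 41.3, 41.4, 35.3 and 35.7 CPM in the DMSO mice and 37.9, 13.1, 27.4 and 30.9 CPM in the SAG mice. The DMSO mice lay close together, SAG mouse 2 was lowest, and the log2 fold change was -0.49 (SE 0.31, adjusted p = 0.504). *Extl1*, a relative of the polymerase that can add to the growing chain, had 87.4, 72.2, 55.3 and 45.8 CPM in the DMSO mice and 48.4, 16.5, 21.1 and 35.1 CPM in the SAG mice. SAG mouse 1 was above DMSO mouse 4 and the other 3 SAG mice were below every DMSO mouse, with a log2 fold change of -1.11 (SE 0.35, adjusted p = 0.126). *Ext2*, *Extl2*, and *Extl3* had log2 fold changes of -0.25, -0.15, and 0.11, with overlapping groups.

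Among the 11 heparan modifiers 0 passed the test, with 7 below 0 and 4 above. *Ndst1*, which replaces acetyl groups by sulfate and so opens the chain to further modification, had 59.3, 53.7, 81.0 and 43.5 CPM in the DMSO mice and 95.1, 128, 78.4 and 114 CPM in the SAG mice. Only DMSO mouse 3 and SAG mouse 3 overlapped, and the log2 fold change was 0.81 (SE 0.24, adjusted p = 0.0997). *Hs2st1*, the 2-O-sulfotransferase, had 23.6, 13.5, 7.70 and 33.9 CPM in the DMSO mice and 13.3, 10.3, 15.3 and 9.37 CPM in the SAG mice, with overlap and with DMSO mouse 4 the highest. Its log2 fold change was -0.71 (SE 0.45, adjusted p = 0.506).

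*Hs3st3a1*, which adds the rare 3-O-sulfate, had 28.2, 48.3, 13.3 and 8.47 CPM in the DMSO mice and 15.5, 2.88, 6.10 and 7.14 CPM in the SAG mice. SAG mouse 1 was above 2 DMSO mice, and the log2 fold change was -1.64 (SE 0.62, adjusted p = 0.205). *Hs3st3b1*, a close relative on the same chromosome with the same activity, had 61.4, 98.4, 67.3 and 14.6 CPM in the DMSO mice and 45.6, 13.0, 25.5 and 16.2 CPM in the SAG mice. DMSO mouse 4 was below 3 of the SAG mice, the other DMSO mice were above all of them, and the log2 fold change was -1.27 (SE 0.53, adjusted p = 0.258).

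The counts of *Hs3st3a1* and *Hs3st3b1* were not fully separable, because an identical run of 401 bases occurs in both coding sequences, at coding positions 673 to 1073 of *Hs3st3a1* and 667 to 1067 of *Hs3st3b1*. It lies at chr11:64520310-64520710 on the plus strand and chr11:63889233-63889633 on the minus strand (GRCm38, GENCODE M21), and its first 200 bases are shown because a read from them fits either gene.
Hs3st3a1 and Hs3st3b1: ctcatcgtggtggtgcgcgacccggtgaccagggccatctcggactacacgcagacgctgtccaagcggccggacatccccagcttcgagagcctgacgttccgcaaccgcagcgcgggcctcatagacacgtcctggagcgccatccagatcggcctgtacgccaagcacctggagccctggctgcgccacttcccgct
Of the 31-base words of *Hs3st3b1*, 9.81% also occur in *Hs3st3a1*. For *Hs3st3a1*, 44.5% of the words occur in another gene, most of them in *F930015N05Rik*, whose exons overlap it on the opposite strand by 1295 bases. The words were matched on either strand, and these shares are not the size of the error in the counts, which was not measured.

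The other heparan modifiers had log2 fold changes of -0.53 (*Hs6st1*, a 6-O-sulfotransferase), -0.50 (*Glce*, the epimerase), 0.04 (*Ndst2*), and 0.09 (*Hs3st1*). *Sulf1* and *Sulf2*, which remove 6-O-sulfate outside the cell, had -0.20 and -0.17. *Hs6st2* was at 0 counts in DMSO mice 1 and 4, which allows up to 0.0699 and 0.114 CPM, and at 8.45 and 10.3 CPM in SAG mice 3 and 4, and its fitted log2 fold change of 1.48 depends on the prior count. All these groups overlapped.

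All 6 genes of sulfate and sugar supply had a fold change below 0, and 0 passed the test. *Papss2* had 458, 449, 419.9 and 194 CPM in the DMSO mice and 358, 113, 243 and 251 CPM in the SAG mice, with a log2 fold change of -0.66 (SE 0.35, adjusted p = 0.398). DMSO mouse 4 and SAG mouse 2 were the lowest of their groups, and the other 3 DMSO mice were above all SAG mice. *Slc26a2*, the sulfate transporter whose loss causes diastrophic dysplasia, had 248, 262, 200.4 and 119.5 CPM in the DMSO mice and 176, 70.3, 136 and 154 CPM in the SAG mice. DMSO mouse 4 and SAG mouse 2 were again the lowest of their groups, with a log2 fold change of -0.63 (SE 0.31, adjusted p = 0.350).

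*Slc35d1*, which brings sugar nucleotides for chondroitin into the endoplasmic reticulum, had 67.0, 82.9, 69.8 and 53.9 CPM in the DMSO mice and 47.1, 56.7, 34.4 and 47.2 CPM in the SAG mice. Only DMSO mouse 4 was within the SAG range, and the log2 fold change was -0.56 (SE 0.22, adjusted p = 0.239). *Slc35b2*, *Papss1*, and *Ugdh*, which makes the uronic acid donor, had log2 fold changes of -0.19, -0.03, and -0.25. Of the 3 hyaluronan synthases 0 passed the test and all were below 0. *Has1* had 23.1, 7.93, 6.55 and 14.0 CPM in the DMSO mice and 9.23, 9.29, 1.27 and 2.65 CPM in the SAG mice, with a log2 fold change of -1.20 (SE 0.68, adjusted p = 0.438), and the groups overlapped, with the highest value in DMSO mouse 1. *Has2* and *Has3* had -0.37 and -0.05, and *Has3* shares 352 exon bases with *Chtf8* on the opposite strand.

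The members varied widely among mice of 1 group. The median range was 1.53 on the log2 scale in the DMSO group and 1.32 in the SAG group, each over 4 mice. It was 0.76 over DMSO mice 1 to 3, but a range over fewer of the same mice can only be equal or smaller. No range over 3 mice was taken in the SAG group. DMSO mouse 4 was the lowest of its group for 28 of 46 members and SAG mouse 2 for 24 of 46, the same mice that had the lowest chondrocyte marker sums. These 2 mice also had the highest neutrophil marker sums of their groups, at 14889 and 45182 CPM. The lowest mouse was not counted over all genes, so these counts cannot be read as particular to the members. The summed CPM of the 46 members was 4045, 3858, 3343, and 2112 in the DMSO mice and 3213, 2009, 2515, and 2691 in the SAG mice, so that the groups overlapped. As a percentage of the chondrocyte marker sum, this was 3.71, 4.01, 4.00, and 4.51 in the DMSO mice and 6.27, 10.6, 5.57, and 5.07 in the SAG mice. On that scale every SAG mouse was above every DMSO mouse, with the highest value in SAG mouse 2. The 14 markers of the divisor had a median log2 fold change of -0.99, against -0.35 for the members and -0.08 over all genes tested. This ratio was not computed for other genes, so the separation cannot be read as particular to the members. The part of other cells in this ratio was not tested.

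**Figure D4:**
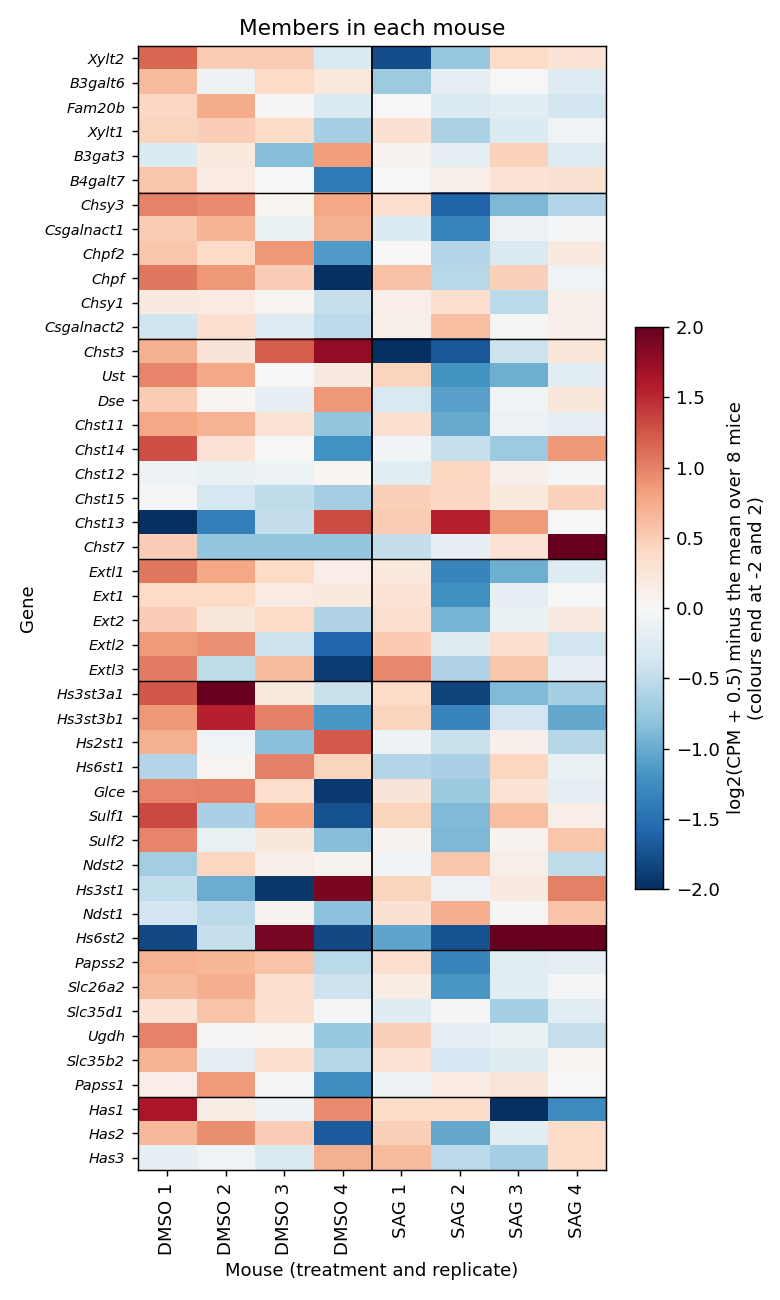
Each member (y axis, grouped by role) in each mouse (x axis) as log2(CPM + 0.5) minus its mean over the 8 mice. DMSO mouse 4 is lowest of its group for 28 members and SAG mouse 2 for 24, while *Chst3*, *Hs2st1*, and *Hs3st1* are among those highest in DMSO mouse 4. The lowest mouse was not counted over all genes.

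Ratios of 2 members within a mouse do not depend on the depth of the library. Of 13 pairs of paralogs or of sulfotransferases acting on 1 chain, 11 had counts above 0 in every mouse, and these were compared with an exact 2-sided permutation test over 70 relabellings (smallest p 0.0286) with adjustment over the 11. The pairs were chosen with earlier results of these data known. None of the 11 had an adjusted p under 0.05. The ratio of *Csgalnact1* to *Csgalnact2* was 0.556, 0.374, 0.318 and 0.697 in the DMSO mice and 0.222, 0.0761, 0.267 and 0.267 in the SAG mice. Every SAG mouse was below every DMSO mouse, and the difference was -1.31 on the log2 scale (exact p = 0.0286, adjusted p = 0.314).

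*Chsy1* to *Chsy3* was 1.26, 1.27, 2.21 and 0.929 with DMSO and 1.88, 8.80, 2.88 and 3.64 with SAG, a difference of 1.43 on the log2 scale (exact p = 0.0571, adjusted p = 0.314). *Papss1* to *Papss2* was 0.0504, 0.0856, 0.0490 and 0.0446 with DMSO and 0.0548, 0.209, 0.102 and 0.0834 with SAG, a difference of 0.85 (exact p = 0.0857, adjusted p = 0.314). Both sets overlapped between the groups. The 4-O-sulfotransferase *Chst11* against the 6-O-sulfotransferase *Chst3* was 17.1, 22.1, 8.57 and 2.78 with DMSO and 90.7, 27.5, 20.4 and 12.0 with SAG, a difference of 1.52 with exact p = 0.171 and adjusted p = 0.377. The other 7 pairs overlapped as well, with adjusted p from 0.377 to 0.714.

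**Figure D5:**
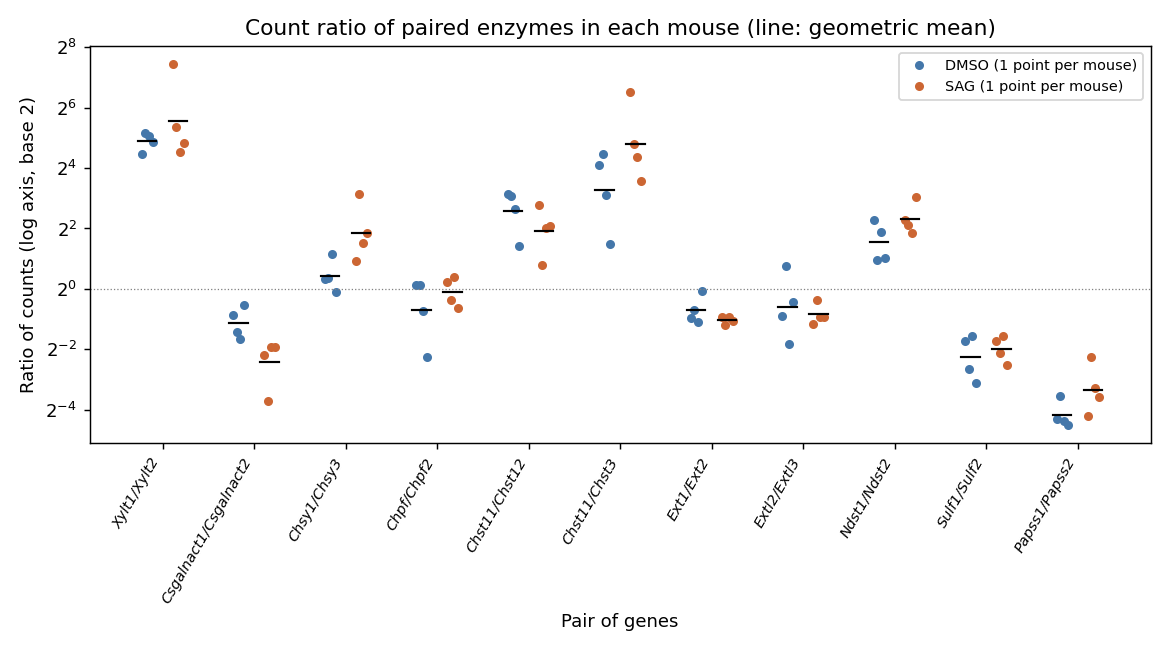
Ratio of counts of 2 enzymes in each mouse (points, log axis) and the geometric mean (line) for 11 pairs on the x axis. Only *Csgalnact1*/*Csgalnact2* separates the groups, with SAG mice below DMSO mice.

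Other genes of the pathway were counted from lists written by hand. Of 19 further synthesis, sulfotransferase, and sugar nucleotide genes tested, edgeR called 0, and the median log2 fold change was -0.42. At an unadjusted p under 0.05 there were 2 (10.5%, against 16.1% of all genes). DESeq2 and limma voom both called 1 of them lower, *Bpnt1*, which breaks down the product that PAPS leaves after sulfation (edgeR adjusted p = 0.0743). Of 20 genes that degrade glycosaminoglycans, edgeR called 0 (3 at an unadjusted p under 0.05, or 15%), with a median of -0.16. *Cemip*, which takes part in hyaluronan breakdown, was called lower by DESeq2 and limma voom, and *Galns*, a lysosomal sulfatase, higher by DESeq2 alone. Among 25 core proteins and receptors the median was -0.68. At an unadjusted p under 0.05, 2 were higher and 9 lower (44%, against 16.1% of all genes). By edgeR's adjusted p, 1 was called higher (2.62% of all genes), *Cd44*, the hyaluronan receptor, which white blood cells also carry. DESeq2 called 2 of the 25 higher and 4 lower, and limma voom 2 higher and 5 lower. Over all genes, DESeq2 called 5.17% higher and 2.53% lower, and limma voom 6.45% higher and 2.58% lower. By both tools *Srgn* was also higher, and *Sdc3*, *Epyc*, and *Col9a2* were lower (edgeR adjusted p = 0.0574, 0.0595, 0.0699, and 0.130). Of the genes named here, all but *Cd44* were chosen after their values were seen. *Cd44* was at 262, 293, 300.3, and 344 CPM in the DMSO mice and 512, 826, 638, and 740.3 CPM in the SAG mice, without overlap, with a log2 fold change of 1.18 (SE 0.19, adjusted p = 0.0116). Over all genes tested, 7.90% had every SAG mouse above every DMSO mouse. The neutrophil marker sum was higher in the same 4 SAG mice, and its part in the *Cd44* value was not tested.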

How the data were processed

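The authors deposited a table of unscaled read counts for each gene in 8 libraries, made from total RNA with a stranded low-input kit. The submitters' processing notes name kallisto, DESeq2, and the build GRCm38, and their versions and the strand setting are not given in the sources used here. Libraries were matched to mice by the labels. Counts were fitted in R 4.3.3 with edgeR 4.0.16 (TMM, filterByExpr, 15421 of 16536 genes kept, robust quasi-likelihood test, 2-sided, Benjamini-Hochberg adjustment over all genes tested), and all 46 members were kept. Alternatives were DESeq2 1.42.0, limma 3.58.1 (voom with quality weights), other scalings and filters, a replicate block, and leaving out each mouse. The fits were tested on simulated data. CPM used TMM-scaled library sizes, and RPKM also the exon length in GENCODE M21. Counts of 3 were the detection floor, and floors cover counting error only. Total counts of 24971992 to 46593090 per library limit the precision of members near that floor. Shared sequence was measured as 31-base words found in another gene's transcripts.

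Values were given for every mouse for members with an adjusted p under 0.05 or groups that did not overlap, and then for those with the smallest unadjusted p, up to 24 in all. Of the core protein and other pathway genes named with a result, only *Cd44* passed edgeR's test. The others were called by DESeq2, limma voom, or both, and were chosen after their values were seen. The members, gene lists, and pairs were chosen with earlier results of these data known.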

Additional observations from a re-analysis of the deposited data

Results flagged for a closer look

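In 92 groups of 4 mice, 8 values stood apart from the nearest other value by more than Dixon's critical share of the group's range at 95%, whereas chance flags about 1 in 20 groups, or 4.6 of 92. DMSO mouse 4 gave 4 of them. It was low for *Xylt1*, at 279 CPM against at least 573 CPM in the other DMSO mice, and for *Papss2*, at 194 CPM against at least 419.9 CPM. It was high for *Hs3st1*, at 6.95 CPM against at most 0.933 CPM, and for *Has3*, at 5.47 CPM against at most 2.92 CPM. SAG mouse 2 was high for *Csgalnact2*, at 219.6 CPM against at most 157 CPM in the other SAG mice. *Chst7* stood at 0.699 CPM in DMSO mouse 1, against 0 in the others, and at 3.47 CPM in SAG mouse 4, against at most 0.548 CPM. *Hs6st2* stood at 6.07 CPM in DMSO mouse 3, against at most 0.781 CPM.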

How the results depend on the processing

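The number of members called was 0 in both directions with RLE size factors, with the library size alone, and without a filter on low counts. DESeq2 called 2 higher and 3 lower, and limma voom called 1 higher and 4 lower. With at least 10 counts in every sample, 1 member was called higher (*Chst15*, adjusted p = 0.0412) and 0 lower, against 558 and 87 of the 12031 genes then tested. Leaving out each mouse in turn gave 0 to 1 members higher and 0 to 2 lower, the most without DMSO mouse 4. The replicate block gave 0 higher and 1 lower (*Chst3*, log2 fold change -2.02, adjusted p = 0.0269), against 334 and 18 of all genes, and it moved the median over all genes by 0.10. The labels give the mice only a replicate number. Deviations from the group means correlated at 0.12, 0.022, 0.019, and 0.010 between same-numbered mice, and at -0.12 to 0.084 between differently numbered mice. Such values cannot show whether same-numbered mice shared a litter or a sorting day.

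The log2 fold changes of the 24 members named with values in every mouse kept their sign under every alternative run, but not their size. *Chst7* ranged from 0.79 without SAG mouse 4 to 8.38 without DMSO mouse 1 and was 5.46 with the replicate block, *Hs2st1* was -0.28 and *Dse* -0.38 without DMSO mouse 4, and *Ext1* was -0.26 without SAG mouse 2. The median of chondroitin and dermatan modification turned to 0.16 without DMSO mouse 1. Differences in log2 ratio turned sign for *Extl2*/*Extl3* without DMSO mouse 2 (0.21, range over left-out mice -0.65 to 0.21) and for *Sulf1*/*Sulf2* without DMSO mouse 4 (-0.013, range -0.013 to 0.51). The cause of these shifts was not tested. With 4 mice against 3, the exact test of a ratio cannot go below p = 0.0571. The common dispersion of 0.466 and the 0 counts of *Chst7* and *Hs6st2* limit what could be detected.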
